A study of Mus musculus with 4 samples.

Results

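The Chromobox (Cbx) genes followed here are Cbx1, Cbx2, Cbx3, Cbx5, Cbx6, Cbx7 and Cbx8, compared between wild-type and miR-223 knockout immature granulocytes of the mouse. They were chosen by name: every non-control spot of the arrays annotated with the name of one of these genes was taken, which gave 15 probes of 41174, for 7 genes of 28149. Cbx5 was included because it is listed in the literature as a target of miR-223. Of the 15 probes, 14 were tested, out of 25057 tested on the whole array; a probe was tested if Feature Extraction marked it as well above background on both wild-type or on both knockout arrays. Those 14 probes cover all 7 genes.

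The samples were 4 cultures of bone marrow from male C57BL/6 mice, 2 wild type and 2 with miR-223 knocked out, each grown for 4 days in 40 ng/ml GM-CSF, a cytokine that expands granulocytes and macrophages. Expanding immature granulocytes were sorted from each culture, so culture and cytokine are common to both groups. The labels give no age, do not say whether marrow was pooled, and do not name separate animals for the replicates; the p-values therefore measure the spread between these samples, which may be technical. Total RNA was labelled with the dye Cy3 and hybridised to 1 Agilent mouse array per sample, all on 1 slide.

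Chromobox proteins read methylated histone H3. Cbx1, Cbx3 and Cbx5 encode the heterochromatin proteins HP1 beta, gamma and alpha, whose chromodomain binds H3K9 methylation, the mark of silent heterochromatin, and whose chromoshadow domain dimerises and recruits partners. Cbx2, Cbx6, Cbx7 and Cbx8 encode chromodomain subunits of canonical Polycomb repressive complex 1 (PRC1), which bind H3K27 methylation, the mark that Polycomb repressive complex 2 (PRC2) lays down. In myeloid differentiation, nuclear condensation and the silencing of progenitor genes both use these systems, and miR-223, a microRNA abundant in granulocytes, lowers its targets by pairing its seed with sites in their mRNA.

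The sequences that the results refer to are the microRNA that was deleted, probes that lie in coding sequence, and the promoters of the 3 members with the smallest p-values. The mature microRNA, from RefSeq (GRCm38.p6, chrX:96242884-96242905, plus strand), is shown with its seed, bases 2 to 8, in capitals. An mRNA site that pairs with all of that seed reads AACTGAC. This letter run was present in 0 of the 15 member probes, beside 0.379% of the 25057 tested probes; the probes are short windows, so this says nothing of the rest of the mRNAs.
mmu-miR-223-3p: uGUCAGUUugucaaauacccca

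The array files hold 60-base probes, and the Cbx1 probe and the middle Cbx3 probe are printed. At least 1 reading frame runs through each of them without a stop, and the other member probes were not checked for this. The Cbx1 probe lies at chr11:96662823-96662882, plus strand, build mm9. The Cbx3 probe lies at chr6:51425341-51428464, plus strand, a span of 3124 bases for 60 bases of probe, so that it crosses a splice junction, in the part that codes for the chromodomain. Although the chromodomains of the family are related, the longest run of letters shared between probes of different members was 9 bases over 94 pairs. No annotation of build mm9 was used here, so exons and UTRs are not assigned to the other probes.
Cbx1 probe: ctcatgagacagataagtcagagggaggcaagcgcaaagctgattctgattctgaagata
Cbx3 middle probe: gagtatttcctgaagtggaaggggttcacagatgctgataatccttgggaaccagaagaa

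Promoter windows, 250 bases before to 50 after each start, were taken from RefSeq (GRCm38.p6) and held an entry for 6 of the 7 members, with 2 windows each for Cbx3 and Cbx5. The 250 bases before the start of Cbx1 (chr11:96788885-96789134, plus strand), of the upstream start of Cbx5 (chr15:103239853-103240102, minus strand) and of Cbx8 (chr11:119040914-119041163, minus strand) are printed 5′ to 3′ on the gene's strand. Capitals mark the letters CACGTG (E-box), TGACGTCA (a cyclic AMP response element), TTTGGCGC or TTTCCCGC (E2F) and CCAAT, on either strand. CACGTG occurred in 6.02% of 32851 promoter windows and stood once in the windows of Cbx5 (the upstream start), Cbx6 and Cbx8. TGACGTCA occurred in 1.55% of windows and, among members, in that of Cbx8. CCAAT occurred in 33.8% of windows and in those of Cbx5, Cbx7 and Cbx8, and an E2F motif in 1.3% and in 1 window of Cbx3. The Cbx1 window held none of these letters, so it has no capitals. These matches describe letters in the windows, and binding was not measured.
Cbx1 promoter: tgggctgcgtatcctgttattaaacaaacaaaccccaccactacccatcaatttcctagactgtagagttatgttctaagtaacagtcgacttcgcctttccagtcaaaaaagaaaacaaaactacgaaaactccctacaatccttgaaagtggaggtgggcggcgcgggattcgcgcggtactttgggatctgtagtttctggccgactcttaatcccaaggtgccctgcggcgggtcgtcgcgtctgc
Cbx5 promoter: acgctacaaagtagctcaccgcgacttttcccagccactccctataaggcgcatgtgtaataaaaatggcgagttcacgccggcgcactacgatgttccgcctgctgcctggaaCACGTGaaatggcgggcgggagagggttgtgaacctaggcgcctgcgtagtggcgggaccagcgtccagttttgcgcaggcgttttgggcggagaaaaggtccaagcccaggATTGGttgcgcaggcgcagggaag
Cbx8 promoter: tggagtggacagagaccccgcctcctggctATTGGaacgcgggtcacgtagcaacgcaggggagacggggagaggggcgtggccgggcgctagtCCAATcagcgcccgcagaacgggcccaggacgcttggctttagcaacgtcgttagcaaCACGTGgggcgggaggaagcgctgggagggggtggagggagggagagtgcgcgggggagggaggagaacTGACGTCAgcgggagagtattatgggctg

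The 75th percentile of the probe intensities lay between 486 and 586, and 0 spots of the arrays were saturated. Wild-type replicate 2 had the lowest 75th percentile. It also had the fewest probes well above background, 57.6%, beside 62.2% to 63.5% on the other arrays. Some member differences without this array are given below. No probe is named for the deleted microRNA, so the knockout was not checked here. Of 15 markers of immature granulocytes, 13 had a probe and each of these was well above background on all 4 arrays, while Cebpe and Ly6g had none. Markers of B cells (Ebf1, Pax5), T cells (Cd3g) and natural killer cells (Ncr1), and of red cell precursors (Klf1, Alas2), were not well above background on any array. Across all tested probes, arrays correlated at 0.989 within the wild type, 0.994 within the knockout and 0.985 to 0.991 between genotypes.

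Levels below are log2 intensities minus the 75th percentile of the array, so that 0 is the 75th percentile, and differences are knockout minus wild type on the log2 scale with limma's moderated standard error (SE) and n = 2 arrays per genotype. Levels of different probes are not comparable, since probes differ in hybridisation. No member passed the test over the whole array: 0 of the 14 tested probes had an adjusted p under 0.05 (limma, Benjamini-Hochberg over 25057 probes), beside 3 of 25057 probes, 0.0120%. At an unadjusted p under 0.05, 3 member probes were higher, in Cbx1, Cbx5 and Cbx8, and 0 were lower, where 7.71% of all tested probes were higher and 5.26% lower. The 3 probes called over the array were those of Cst10, Btg4 and Ccdc157, named after their values were seen; they were lower in the knockout and well above background in the wild type only, so that their size has only a bound.

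By direction, 10 of the 14 member probes lay above 0 and 4 below, with a median difference of 0.20, beside 55.2% of all tested probes above 0 and a median of 0.03. The genotypes did not overlap for 8 member probes, 7 with the knockout higher and 1 with it lower; over all tested probes the shares were 27.6% higher and 19.4% lower. Probes of 1 gene share their mRNA, so the 14 are not 14 separate observations. With the brightest probe of each gene, 6 of the 7 members lay above 0 and Cbx3 below. Cbx2 fell below 0, at -0.02, with a normexp background correction. Without wild-type replicate 2, Cbx2 was at -0.19 and Cbx6 at -0.15, and without knockout replicate 1 Cbx6 was at -0.13. In sorted cells measured in bulk, fewer cells of a type and less RNA per cell cannot be told apart.

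**Figure D1:**
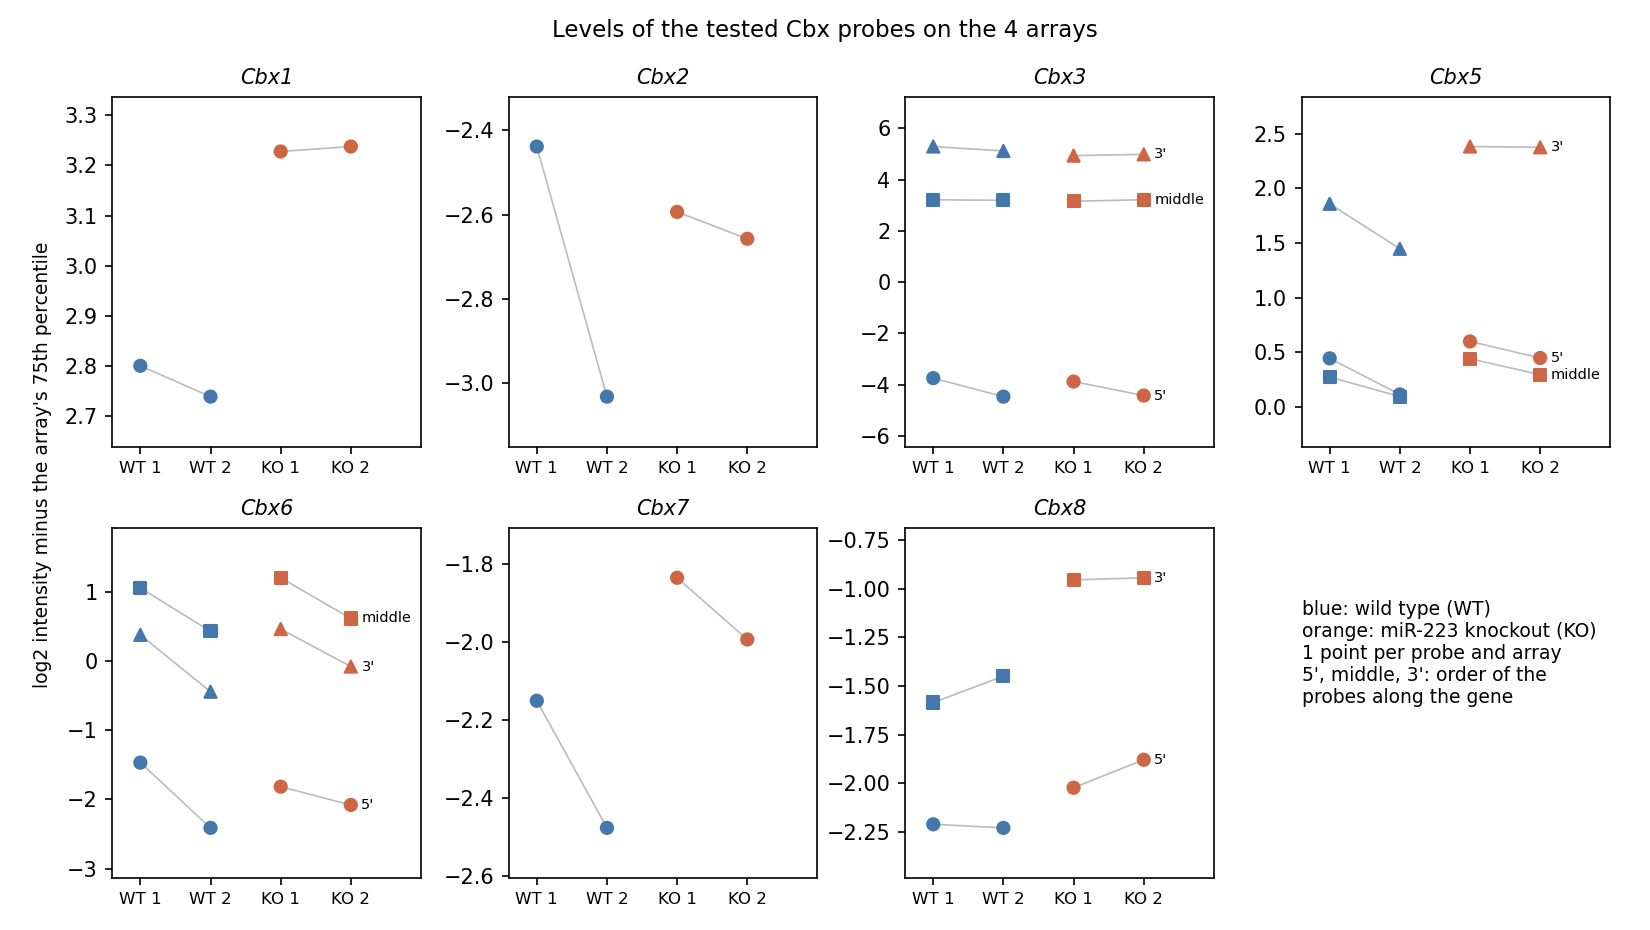
Levels of the 14 tested Cbx probes, as log2 intensity minus the 75th percentile of the array, on each of the 4 arrays, with 1 panel per gene, its own vertical scale in each panel and grey lines joining the arrays of a genotype. The knockout arrays lie above the wild-type arrays for Cbx1, Cbx5, Cbx7 and Cbx8, and the genotypes overlap for Cbx2 and Cbx6. For Cbx3 the knockout arrays lie below the wild-type arrays at the 3′ probe, and the genotypes overlap at its other probes.

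Among the HP1 genes, Cbx5 (HP1 alpha) had the largest difference of the 14 probes, at the 3′-most of its 3 probes; with the probes of a gene averaged, it was 0.39, below the 0.46 of Cbx1 and the 0.42 of Cbx8. This probe, at chr15:103022567-103022626 on the minus strand (mm9), read 1.86 and 1.45 in the wild type and 2.38 and 2.38 in the knockout. The knockout arrays were nearly equal and both were higher, while the wild-type arrays were apart from each other. The difference was 0.73 ± 0.18 (SE; 95% interval 0.24 to 1.21), 1.66-fold, with an unadjusted p of 0.0125 and an adjusted p of 0.291 (limma). It was 0.93 without wild-type replicate 1, which gave the lowest adjusted p of any setting, 0.0910, and 0.52 without wild-type replicate 2; without the second knockout array it was 0.73.

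The other Cbx5 probes lie 7183 bases further 5′ on the genome and 149 bases apart from each other. The 5′-most, at chr15:103030019-103030078, read 0.44 and 0.11 in the wild type and 0.60 and 0.45 in the knockout, a difference of 0.24 ± 0.17 (adjusted p = 0.592, limma). The middle probe, at chr15:103029810-103029869, read 0.27 and 0.09 against 0.44 and 0.30, a difference of 0.18 ± 0.14 (adjusted p = 0.628, limma). Both knockout arrays were above both wild-type arrays at these probes too, by a small margin. These smaller differences depended on 1 library: without wild-type replicate 2 they were 0.08 and 0.09, and without wild-type replicate 1 they were 0.41 and 0.27. The averaged Cbx5 value had an adjusted p of 0.401 (limma).

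Cbx1 (HP1 beta) was measured by the single coding probe printed above. It read 2.80 and 2.74 in the wild type and 3.23 and 3.24 in the knockout, so that the genotypes were apart by more than either pair of replicates. The difference was 0.46 ± 0.12 (95% interval 0.14 to 0.79), 1.38-fold, with an unadjusted p of 0.0157 and an adjusted p of 0.307 (limma). It ranged from 0.39 to 0.49 over 12 alternative settings. The filters on probes, 1 probe per gene and the replicate block leave this estimate at 0.46 by construction.

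Cbx3 (HP1 gamma), the third HP1 gene, gave differences below 0 at its 3 probes, but only the brightest kept that sign in every setting: the middle probe stood at 0.0041 in the authors' deposited values and 0.0117 without knockout replicate 1. Its brightest probe, the 3′-most at chr6:51433431-51433490, read 5.29 and 5.12 in the wild type and 4.94 and 4.99 in the knockout. The knockout arrays were the lower ones, by -0.24 ± 0.14 (95% interval -0.60 to 0.11; adjusted p = 0.509, limma). The middle probe, in the chromodomain part, read 3.21 and 3.19 against 3.16 and 3.21, with overlapping genotypes and a difference of -0.02 ± 0.12. The 5′-most probe, at chr6:51421595-51421654, was dim, at -3.75 and -4.47 against -3.88 and -4.43, and its difference of -0.05 ± 0.32 turned with single arrays left out, between -0.41 and 0.32.

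Among the Polycomb members, Cbx8, a canonical PRC1 subunit, had the smallest unadjusted p of the family. Its 3′ probe, at chr11:118897653-118897712 on the minus strand, read -1.58 and -1.45 in the wild type and -0.96 and -0.94 in the knockout. Both knockout arrays were higher and nearly equal. The difference was 0.57 ± 0.13 (95% interval 0.22 to 0.91), 1.48-fold, with an unadjusted p of 0.00881 and an adjusted p of 0.279 (limma). It was 0.34 with a normexp background correction, the lowest of 13 settings. The 5′ probe, 2064 bases away, read -2.21 and -2.23 against -2.02 and -1.88, a difference of 0.27 ± 0.13 (adjusted p = 0.466, limma), again with both knockout arrays higher.

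Cbx7, a PRC1 subunit known for repressing the Ink4a locus, had 1 probe, at chr15:79746268-79746327 on the minus strand. It read -2.15 and -2.48 in the wild type and -1.83 and -1.99 in the knockout, so the genotypes did not overlap, but by less than the gap between the wild-type arrays. The difference was 0.40 ± 0.17 (95% interval -0.05 to 0.85), with an unadjusted p of 0.0711 and an adjusted p of 0.424 (limma). It was 0.20 with normexp and 0.24 without wild-type replicate 2.

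Cbx2 and Cbx6, also PRC1 subunits, overlapped between genotypes at every tested probe. The tested Cbx2 probe, at chr11:118892363-118892422, read -2.44 and -3.03 in the wild type and -2.59 and -2.66 in the knockout. Both knockout values fell between the wild-type values, and the difference was 0.11 ± 0.23 (95% interval -0.50 to 0.72; adjusted p = 0.869, limma). The other Cbx2 probe did not rise well above background on the 4 arrays and was not tested. The 3 Cbx6 probes differed by -0.01 ± 0.35, 0.17 ± 0.31 and 0.22 ± 0.35 from 5′ to 3′. The first array of each genotype was the brighter one at each Cbx6 probe: the brightest probe read 1.06 and 0.43 in the wild type and 1.21 and 0.62 in the knockout. The interval of the brightest Cbx6 probe, -0.65 to 0.98, includes both 0 and the difference seen at Cbx5. Whether Cbx2 or Cbx6 differed from the other members was not tested.

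**Figure D2:**
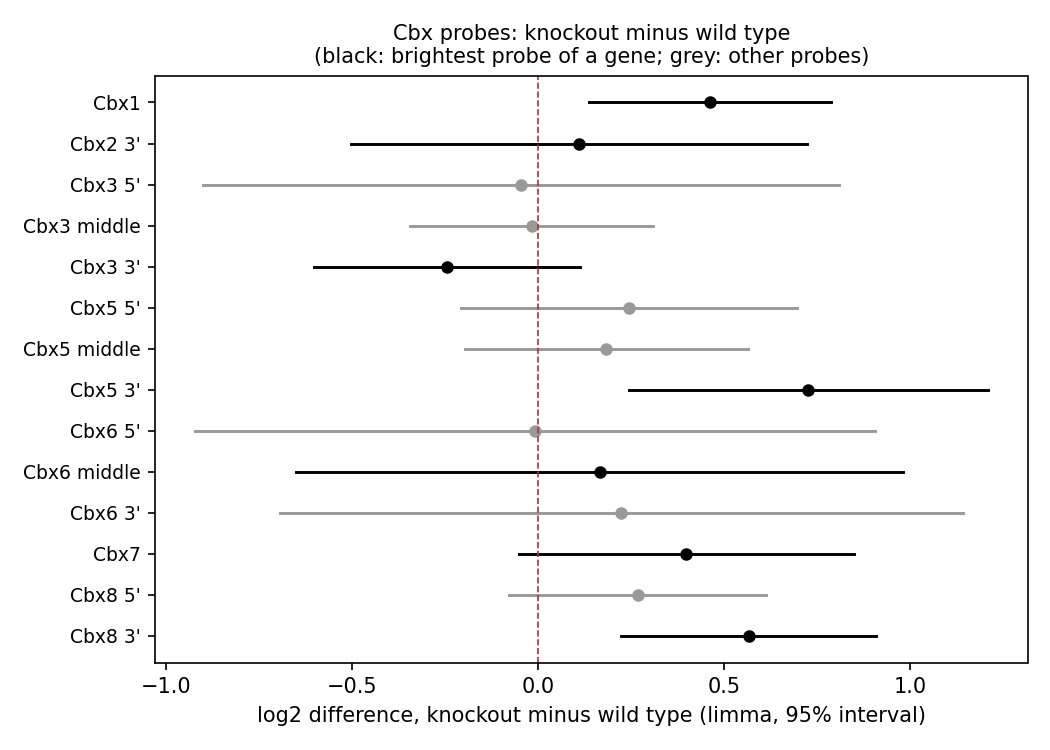
Difference between knockout and wild type on the log2 scale (horizontal axis) for each tested Cbx probe, with its 95% limma interval; black marks the brightest probe of a gene and grey its other probes, ordered 5′ to 3′. The intervals of Cbx1, the Cbx5 3′ probe and the Cbx8 3′ probe lie above 0 before adjustment over the array; the others include 0.

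Where a gene has several probes, the difference between 2 probes of the same array is free of array scaling, and 10 such differences could be compared between genotypes. With 2 arrays against 2, the exact permutation test (two-sided) cannot give a p below 0.333, so none of these could pass 0.05; the smallest adjusted p over the 10 was 0.667. At Cbx5, the 3′ probe exceeded the middle probe by 1.59 and 1.35 in the wild type and by 1.94 and 2.08 in the knockout. The 2 genotypes did not overlap, and the excess was larger by 0.54 in the knockout (exact permutation p = 0.333). Against the 5′-most probe the excess was 1.41 and 1.33 in the wild type and 1.78 and 1.93 in the knockout, larger by 0.48 (exact permutation p = 0.333). The middle and 5′-most Cbx5 probes, by contrast, overlapped, with a change of -0.06 (exact permutation p = 1).

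The excess of the 3′ over the 5′ probe of Cbx8 was likewise larger in the knockout, at 1.07 and 0.93 against 0.62 and 0.78, by 0.30 (exact permutation p = 0.333). At Cbx3 the order was the other way: the 3′ probe exceeded the middle probe by 2.08 and 1.93 in the wild type and by 1.78 and 1.77 in the knockout, less by -0.23 (exact permutation p = 0.333). The 3 Cbx6 comparisons gave changes of 0.06 to 0.23, of which that between the outer probes did not overlap. Which transcript forms each probe detects was not examined here.

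**Figure D3:**
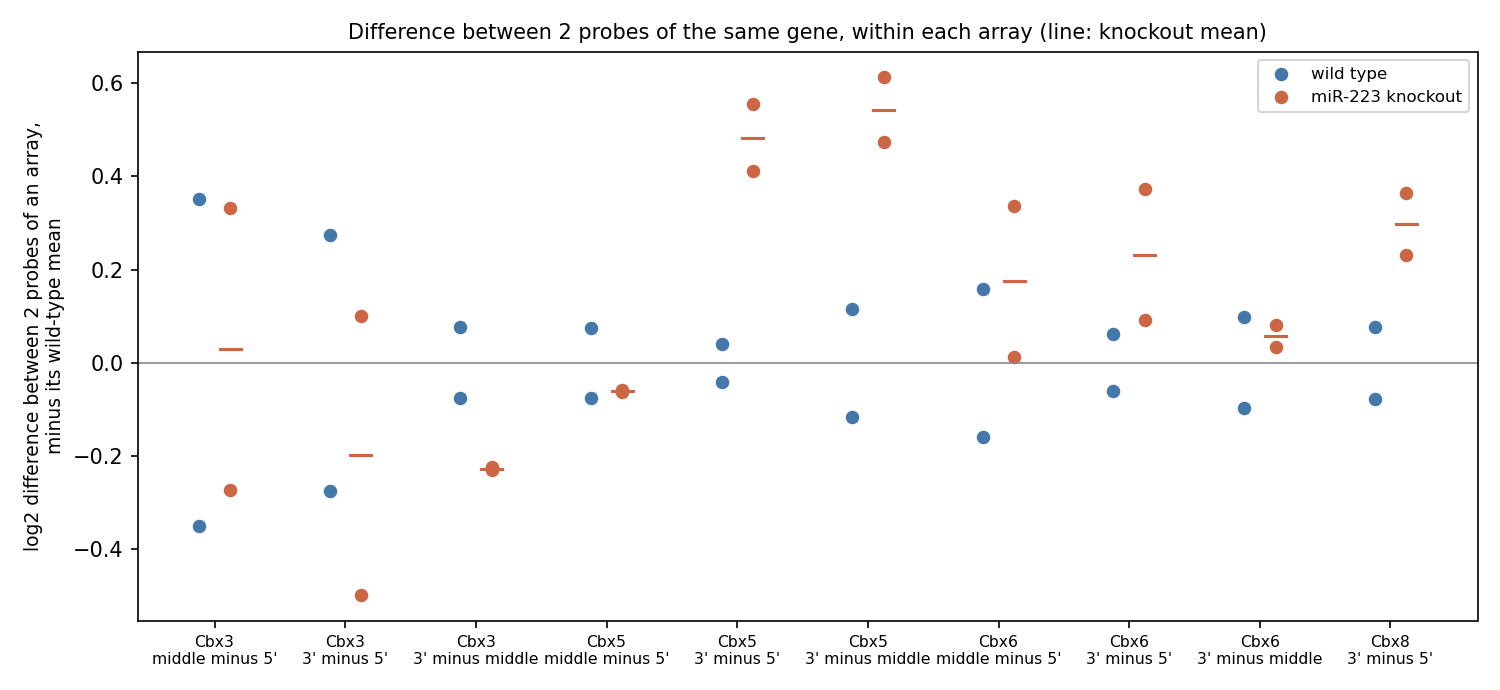
Difference between 2 probes of the same gene within each array, on the log2 scale, after subtraction of its wild-type mean, so that 0 is the wild-type mean; points are arrays and orange lines knockout means. At Cbx5 both knockout arrays lie above the wild type for the 3′ probe against either other probe, by 0.48 and 0.54, and not for the middle against the 5′ probe.

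The partners of the family were read from lists of the complexes in which Cbx proteins act. Of 17 PRC1 subunits, 10 lay above 0 and 7 below, with a median of 0.06. The genotypes were apart for 5 with the knockout higher and for 4 with it lower. Over all tested probes, 27.6% were apart with the knockout higher and 19.4% with it lower. After adjustment over the array, 0 of the 17 passed. The smallest p-values were those of Pcgf2, a PCGF core subunit, at 0.87 ± 0.23 and well above background on only 1 wild-type array, Kdm2b, which brings a variant PRC1 to CpG islands, at -0.40 ± 0.15, and Scmh1 at -0.41 ± 0.18. The list's median turned to -0.01 with normexp.

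Of 11 PRC2 subunits, the writers of the mark that Polycomb Cbx proteins read, 3 lay above 0 and 8 below, with a median of -0.10. Phf1, an accessory subunit, differed by 0.47 ± 0.15, Ezh1, a catalytic subunit, by 0.34 ± 0.13, and Phf19 by -0.36 ± 0.15. Groups were apart with the knockout higher for 3 genes and lower for 3, beside 27.6% and 19.4% of all tested probes. After adjustment, 0 passed. Of 17 genes of H3K9 methylation and HP1 binding, 5 lay above 0 and 12 below, with a median of -0.02 (0.0041 in the authors' deposited values) and a range of -0.16 to 0.28, and 0 had an unadjusted p under 0.05. The largest of these was Lbr, the lamin B receptor, which ties HP1 to the nuclear envelope, at 0.28 ± 0.15. Setdb2 differed by 0.20 ± 0.13 and Ehmt1, an H3K9 methyltransferase, by -0.16 ± 0.13.

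The levels of 16 genes of DNA replication and mitosis were read beside them. Of these, 9 lay above 0 and 7 below, with a median of 0.06 that became -0.04 after quantile scaling. The genotypes were apart for 3 with the knockout higher and for 4 with it lower. The shares over all tested probes were 27.6% and 19.4%. Rrm2, a subunit of ribonucleotide reductase, was at 2.76 and 2.91 in the wild type and 3.59 and 3.45 in the knockout, a difference of 0.69 ± 0.14 (adjusted p = 0.265, limma). Mki67, the proliferation antigen Ki-67, differed by 0.19 ± 0.13, and Mcm4, a subunit of the replicative helicase, by -0.19 ± 0.14. None of the 16 passed after adjustment.

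**Figure D4:**
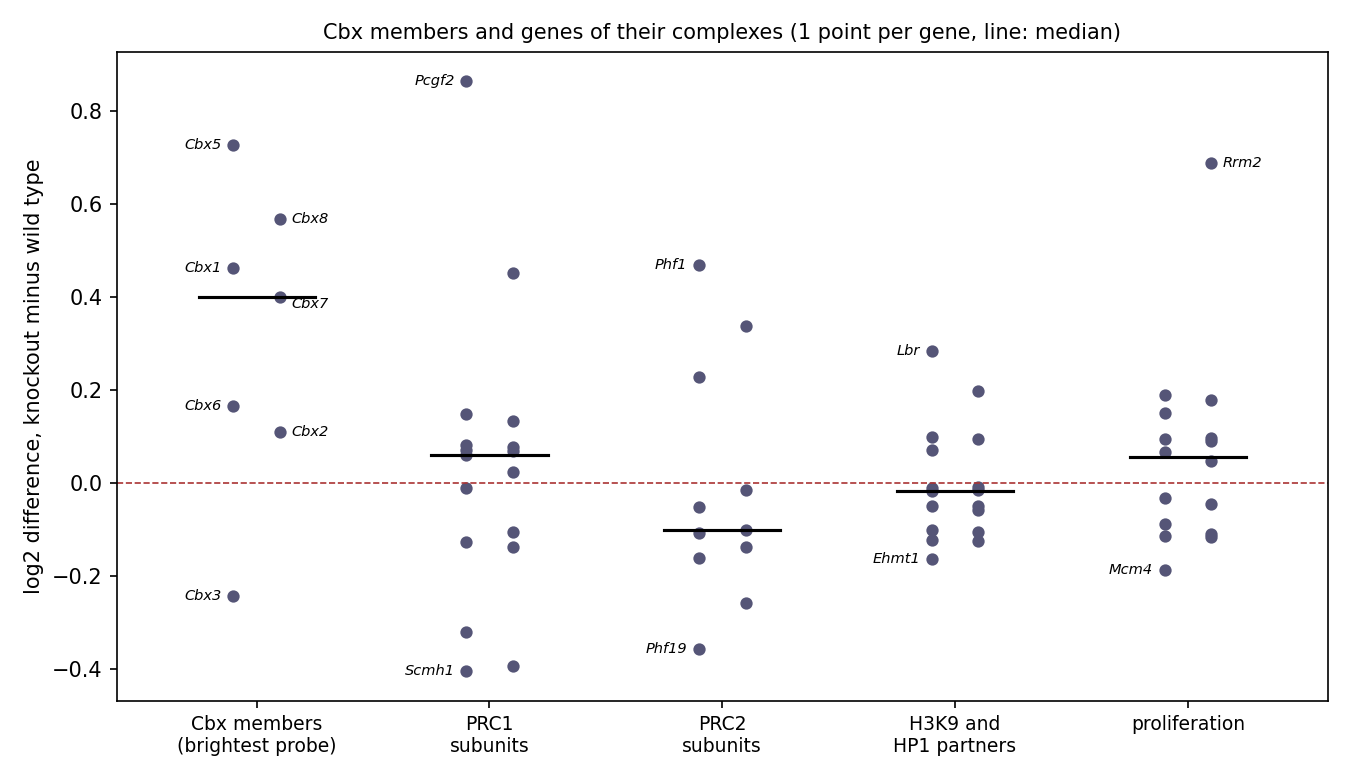
Difference between knockout and wild type on the log2 scale (vertical axis) for the brightest probe of each Cbx member and of the tested genes of 4 lists, with 1 point per gene and a black line at each median. Cbx members run from -0.24 (Cbx3) to 0.73 (Cbx5), and single genes of the lists reach as far, from -0.41 (Scmh1) to 0.87 (Pcgf2).

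Most markers of macrophages, mast cells and basophils, and dendritic cells lay lower in the knockout, although 0 passed after adjustment over the array. Those of lymphocytes and erythroid cells did not: 3 of 4 tested lymphocyte markers lay above 0 (median 0.04) and 2 of 3 tested erythroid markers (median 0.27). Of 12 macrophage and monocyte markers, 11 lay below 0, with a median of -1.09. Their summed signal, in multiples of the 75th percentile intensity, was 36.3 and 46.3 in the wild type and 33.5 and 36.7 in the knockout. For 9 of the 12 the genotypes were apart with the knockout lower, beside 19.4% of all tested probes. Of 9 mast cell and basophil markers, 8 lay below 0 and were apart, beside 19.4% of all tested probes. The median of the 9 was -1.35, with sums of 64.3 and 72.1 against 46.1 and 24.4. The second knockout array was the lowest here. Of 8 dendritic cell markers, 7 lay below 0, with a median of -0.44 and sums of 166 and 179 against 173 and 116.

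Among macrophage markers, those with the smallest p were lower in the knockout: Mertk, a phagocytic receptor, by -2.04 ± 0.21, Vcan by -0.95 ± 0.13 and Fn1 by -1.91 ± 0.27. The granulocyte markers gave a median of 0.15, with 11 of 13 above 0 and sums of 3786 and 4013 against 4144 and 4593. Those with the smallest p were higher: Lcn2 by 0.809 ± 0.235, Ngp by 0.495 ± 0.169 and Csf3r by 0.445 ± 0.183. The 2 below 0 were Mpo, at -0.432 ± 0.235, and Camp, at -0.179 ± 0.187. After adjustment, 0 of the 13 passed. The part of these marker shifts in the Cbx values was not tested.

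The genes that flank the members were read to see whether a member moved with its neighbourhood. Cbx5 lies between Smug1, a uracil DNA glycosylase gene, and Hnrnpa1, an RNA-binding protein gene. Smug1 differed by 0.29 ± 0.26 at its brightest probe and by -0.12 at its other tested probe. Hnrnpa1 differed by -0.01 ± 0.17 at its brightest probe and by -0.41, -0.21 and -0.28 at the others. Cbx1 lies between Snx11, at 0.04 ± 0.18 with a second probe at 0.66 ± 0.15, and Nfe2l1, at -0.04 ± 0.13.

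Cbx2 and Cbx8 are neighbours on chromosome 11, and gave 0.11 and 0.57 at their brightest probes; Enpp7, on the other side of Cbx2, did not rise well above background on the 4 arrays. Cbx6 and Cbx7 lie close together on chromosome 15. Npcd, whose tested probe is annotated on the array as a Cbx6-Nptxr readthrough, differed by 0.59 ± 0.26 (adjusted p = 0.431, limma). That probe was dim, at -5.86 and -5.26 in the wild type and -4.80 and -5.14 in the knockout. It was well above background on only 3 of the 4 arrays, and the other Npcd probe was not tested. Apobec3 differed by 0.14 at both of its probes. Pdgfb, the growth factor gene beside Cbx7, differed in the opposite direction, by -0.79 ± 0.17 and -1.26 at its 2 probes (adjusted p = 0.272 and 0.349, limma). Around Cbx3, Hnrnpa2b1 gave 0.09 and -0.49 and Snx10 gave 0.24 and -0.14. Unequal values at the probes of a gene were therefore seen in Smug1, Hnrnpa1, Snx11, Pdgfb, Hnrnpa2b1 and Snx10 as well as in Cbx5. Some of these estimates were wide. The SEs were 0.21 and 0.24 for the Snx10 probes, 0.26 and 0.17 for Smug1 and 0.17 and 0.40 for Pdgfb. The SE of the Hnrnpa1 probe at -0.41 was 0.41. Differences between probes were not tested for the flanking genes.

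The genes whose 4 array values lay nearest to those of the Cbx5 3′ probe, by Euclidean distance after each gene was centred on its own mean, were Brpf3, Sp3, Atp1b2, Xrcc5 and 1700018B24Rik. Their distances on the log2 scale were 0.04 for Brpf3, Sp3 and Atp1b2 and 0.07 for Xrcc5 and 1700018B24Rik. Their differences between genotypes ran from 0.70 to 0.74, near that of Cbx5 because they were chosen by the same values. Atp1b2 and 1700018B24Rik were dim, at -5.57 and -5.32 on the first wild-type array. Brpf3 is a reader of histone marks in an acetyltransferase complex, Sp3 a transcription factor, Atp1b2 a sodium pump subunit and Xrcc5 the Ku80 subunit of DNA end joining. Likeness over 4 arrays is a description, and many genes of similar difference can show it.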

How the data were processed

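RNA of 4 samples, 2 wild type and 2 knockout, was measured on 1-colour Agilent arrays of design 014868. The intensity per spot was made with Agilent Feature Extraction 10.5.1.1 (mm9 annotation), per the file headers, with background subtracted. The authors' deposited log2 values, which equal the log2 intensity plus 1 constant per array (99.8% of probes within 0.01), served as an alternative. Outlier-flagged spots were left out, log2 intensities were averaged per probe, and each array's 75th percentile was subtracted. Genotypes were compared with limma 3.58.1 in R 4.3.3 (lmFit, eBayes, two-sided) over 25057 probes, with Benjamini-Hochberg adjustment at 0.05; the fit was tested on simulated data. The number of arrays, 2 per group, limits precision. Each gene was represented by its probe of highest mean. The members and lists were chosen with earlier results of these data known. Named are all member probes, up to 3 genes of smallest p per list, the flanking genes and the 5 genes nearest Cbx5. RefSeq (GRCm38.p6) gave names, neighbours, promoters and the microRNA only. Alternatives were normexp, quantile and spike-in scaling, the deposited values, other filters, probe averaging, the replicate number as a block and leaving out each array. Some items are not reported here.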

Additional observations from a re-analysis of the deposited data

How the results depend on the processing

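No member probe was called at an adjusted p of 0.05 in any of the fits with all 4 arrays (limma). No alternative reversed Cbx1, Cbx5, Cbx7, Cbx8 or the brightest Cbx3 probe. The filters on probes and the replicate block could not change these differences, only their p-values. The count of called probes over the array, 3, became 6 with normexp and 0 with the deposited log2 values, no filter on dim probes, probes well above background on all 4 arrays, 1 probe per gene, or the replicate number as a block; leaving out 1 array gave 0 to 543, the highest without wild-type replicate 1 and 89 without wild-type replicate 2. With the replicate block, Cbx5 had an adjusted p of 0.260 and Cbx8 of 0.268 (limma), and the block changed no member call; deviations of same-numbered samples correlated at 0.146 over only 2 pairs, so the numbers were not taken as pairing.

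Other values reversed, some of them as large as 0.22 (the 3′ Cbx6 probe). With normexp, Cbx2 gave -0.0204 and the PRC1 median -0.0061. With the deposited values, the middle Cbx3 probe gave 0.0041, the 5′ Cbx6 probe 0.0129 and the H3K9 and HP1 median 0.0041. With quantile scaling, the 5′ Cbx6 probe gave 0.0059, the Cbx3 middle minus 5′ difference -0.0321 and the proliferation median -0.0354. Leaving out 1 array moved Cbx2 from -0.19 to 0.41, the Cbx3 5′ probe from -0.41 to 0.32, the Cbx3 middle probe from -0.0458 to 0.0117, and the Cbx6 probes from -0.48 to 0.46, -0.15 to 0.48 and -0.19 to 0.64. It moved the Cbx3 contrasts with its 5′ probe from -0.32 to 0.38 (middle) and -0.50 to 0.10 (3′), the Cbx5 middle minus 5′ contrast from -0.135 to 0.0147, the Cbx6 3′ minus middle contrast from -0.0405 to 0.156, the PRC1 median from -0.0556 to 0.0594, the H3K9 and HP1 median from -0.107 to 0.0572 and the proliferation median from -0.0558 to 0.127. The cause was not tested. The Cbx2 probe that was not above background could not be tested.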
